A study of Homo sapiens with 4 samples.

Results

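Aminoacyl-tRNA synthetases were followed in HCT116, a human colorectal cancer cell line, with and without C14orf159, the gene now called DGLUCY, which encodes a protein of the mitochondrial matrix. The 36 genes were picked by symbol from the 26255 in the deposited tables, in the older spelling of the files: 20 encode cytosolic enzymes and 16, with symbols ending in 2, mitochondrial ones. All 36 were found and reached the minimum level for testing, among 12701 genes that did. One group was HCT116 cells labelled C14orf159 knockout (KO), whose columns are headed sgDGLUCY, with 2 libraries called KO 1 and KO 2. The other group was HCT116 cells labelled as transfected with an empty vector (EV control), whose columns are headed AAVS1, a genomic site often used as a neutral target, again with 2 libraries. No drug, dose or time distinguishes the groups in the labels, and they do not say whether KO libraries came from clones, pools or separate cultures. The p-values therefore reflect how far these libraries differ within a group, a spread that may be technical.

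An aminoacyl-tRNA synthetase joins an amino acid to the tRNA that reads its codons, so each enzyme sets the supply of a charged tRNA for protein synthesis. Human cells keep a cytosolic set and a mitochondrial set, both encoded in the nucleus, and the mitochondrial set serves the few proteins translated inside the organelle. GARS and KARS are exceptions in that each gene makes both forms. Several cytosolic enzymes sit together in a multisynthetase complex. Many cytosolic synthetase genes are known targets of ATF4, the transcription factor of the integrated stress response, which is set off when uncharged tRNA accumulates.

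The targeted gene was lower in both KO libraries, at 2.52 FPKM in KO 1 and 10.8 FPKM in KO 2, against 16.2 and 16.4 FPKM in EV control libraries. FPKM are fragments per kilobase of transcript, scaled to the depth of the library. KO 1 and KO 2 thus held 15.5% and 66.2% of the EV control mean for C14orf159, so much of its transcript remained in KO 2. These are RNA levels, and without protein values they do not say how complete the knockout was in either library. The KO libraries also differed from each other, so each is given alone as well as in the group. Estimated depths were between 12470000 and 13390000 fragments per library. Of 7 markers of colorectal epithelium, 6 were expressed, at 8.005 to 1540 FPKM over all libraries, and VIL1 was not. Markers of leukocytes, endothelium and fibroblasts stayed at or below 0.404 FPKM, and 5 of these 10, including PTPRC and COL1A2, were listed at 0 in every library.

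The synthetases were well expressed, and the cytosolic genes stood above the mitochondrial ones. Means over the 4 libraries ran from 34.5 to 133 FPKM for the cytosolic genes and from 5.39 to 69.9 FPKM for the mitochondrial genes. TARS, the threonine enzyme, had the highest level, at 125.9 and 135 FPKM in KO libraries, against 134 and 137 FPKM in EV control libraries. KARS, the lysine enzyme, came next, at 109 and 133 FPKM in KO libraries, against 131 and 130 FPKM in EV control libraries. Among mitochondrial genes IARS2, the isoleucine enzyme, stood apart at 61.2 and 74.3 FPKM in KO libraries, against 71.5 and 72.4 FPKM in EV control libraries, which is the level of a cytosolic gene. The lowest level was that of FARS2, the mitochondrial phenylalanine enzyme, in EV control cells. By an estimate from transcript length and depth, 64 to 6755 fragments lay behind each member's value in a library, so that counting error is largest for FARS2.

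**Figure D1:**
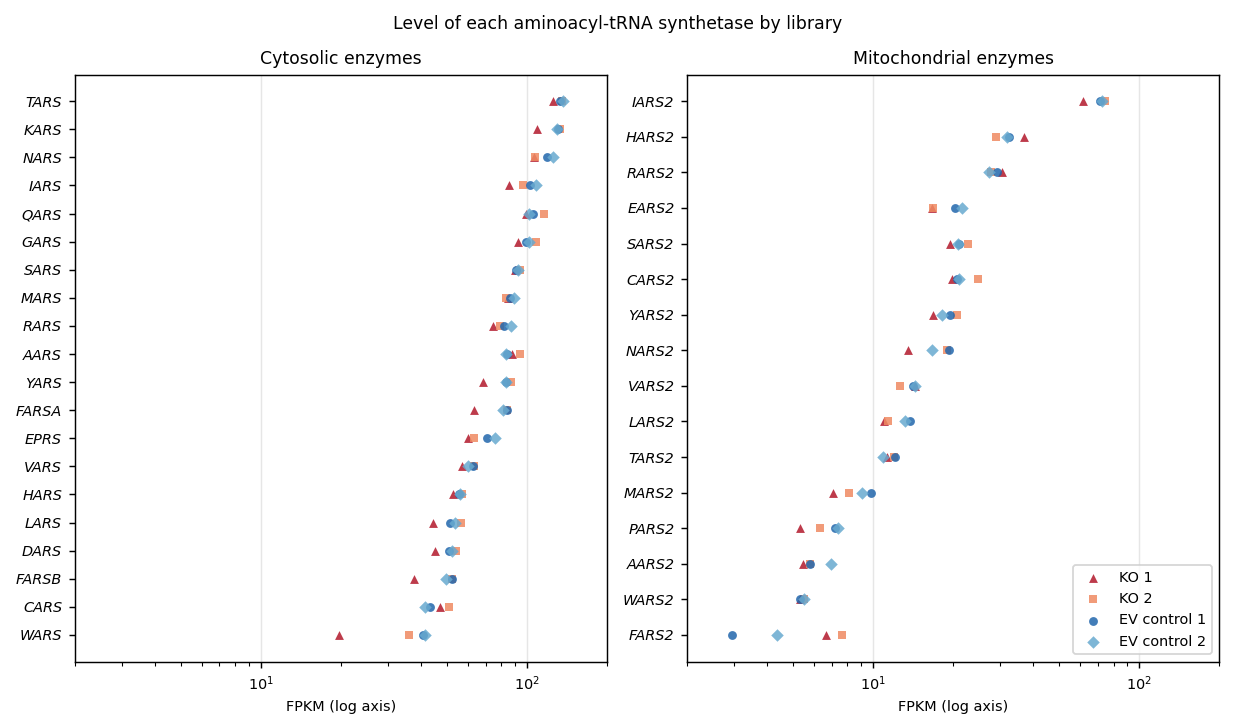
FPKM (log axis) of the 20 cytosolic and 16 mitochondrial synthetase genes, 1 point per library. Cytosolic genes lie at 34.5 to 133 FPKM on average, IARS2 is the mitochondrial gene at that level, and FARS2 and WARS show the widest gaps between libraries.

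To ask whether loss of C14orf159 alters the synthetase genes, KO and EV control libraries were compared in a fit over all 12701 genes. No synthetase gene passed in limma-trend with Benjamini-Hochberg adjustment, 0 higher and 0 lower, against 0.0551% of all tested genes called in each direction. The targeted gene C14orf159 did not pass in this fit either (log2 change -1.42, SE 0.57, adjusted p = 0.314 in limma-trend). With 2 libraries per group, the lack of calls therefore does not show that the members were unchanged. Without adjustment, at p under 0.05, 1 member was higher (FARS2) and 5 were lower (EARS2, LARS2, EPRS, MARS2 and PARS2), where the background was 9.23% of tested genes higher and 7.22% lower. The median log2 change on the log2(FPKM + 1) scale, KO minus EV control, was -0.065 for the 20 cytosolic genes and -0.044 for the 16 mitochondrial genes, against 0.003 for all genes tested. Of the 36 members, 22 lay within 0.15 of 0 on that scale.

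Counting libraries rather than p-values, 3 members had both KO libraries above both EV control libraries, namely AARS, CARS and FARS2, and 10 had both below. The 10 were EPRS, IARS, MARS, NARS, RARS and WARS among cytosolic genes, and EARS2, LARS2, MARS2 and PARS2 among mitochondrial genes. Among all tested genes 26.5% had both KO libraries above and 25.6% both below. The share of members below was thus close to the background, while the share above, 3 of 36, was smaller than it. The groups overlapped for the other 23 of 36 members, a larger share than the 6083 of 12701 among all tested genes. These differences in share were not tested.

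**Figure D2:**
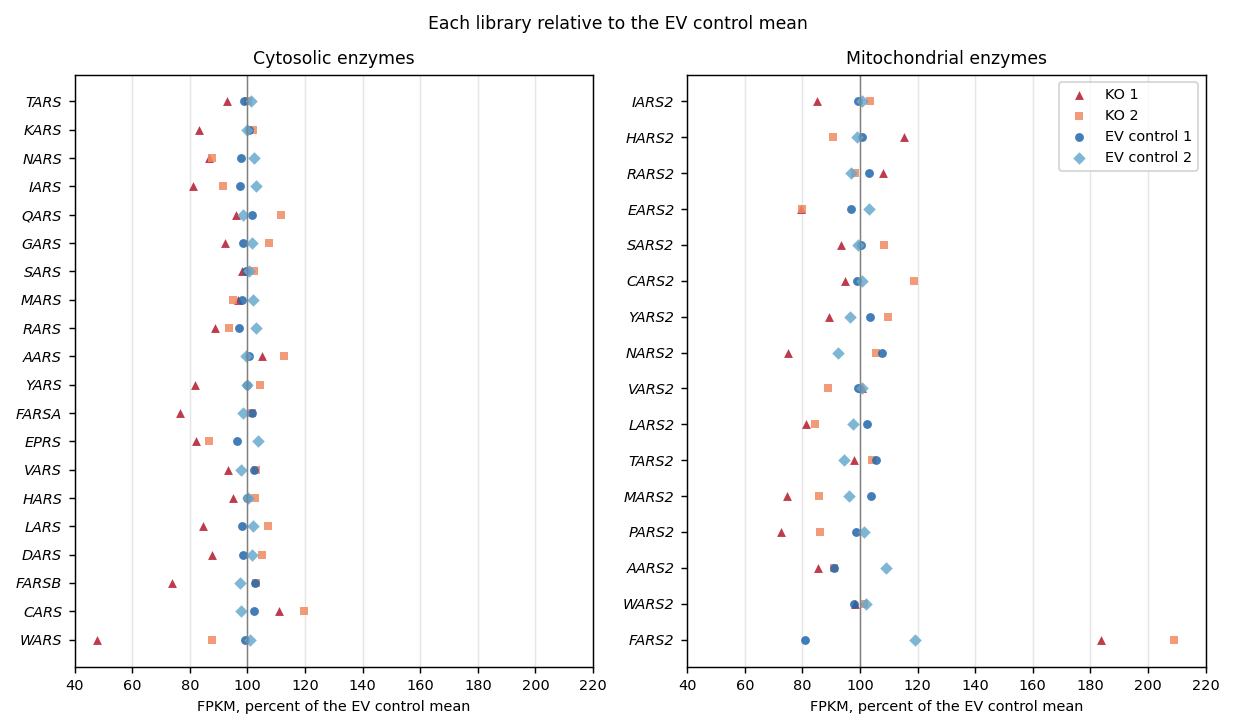
FPKM of each library as a percentage of the EV control mean of that gene, genes ordered by EV control level. KO 1 lies left of the 100% line for most genes, WARS reaches 47.8% in KO 1, and FARS2 reaches 184% and 209% in KO 1 and KO 2.

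KO 1 was the lower KO library for nearly all members. Its FPKM lay below that of KO 2 for 32 of 36 members, the exceptions being MARS, HARS2, RARS2 and VARS2, against 52.1% of all tested genes. Among the 1989 tested genes within the level range of the cytosolic members, KO 1 lay below KO 2 in 70.9%, against 19 of 20 cytosolic members, and among the 7696 within that of the mitochondrial members in 53.5%, against 13 of 16. KO 1 lay below both EV control libraries for 28 of 36 members, against 42.8% of all tested genes, and KO 2 did for 12, against 41.4%. By compartment, KO 1 did so for 18 of 20 cytosolic and 10 of 16 mitochondrial members, where 55.8% and 45.7% of the genes of like level did. KO 2 did so for 6 of 20 and 6 of 16, where 33.9% and 43.2% did. The cytosolic genes summed to 1452 FPKM in KO 1 and 1652 FPKM in KO 2, against 1630 and 1652 FPKM in EV control libraries. The median log2 difference of the cytosolic genes from the EV control mean was -0.177 in KO 1 and 0.033 in KO 2, and that of the mitochondrial genes -0.125 and -0.003. In the same order the median of the genes within the cytosolic level range was -0.059 and 0.054. These contrasts share their EV control libraries and are set side by side for that reason only.

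Fitted alone against the EV controls, KO 1 gave 7 members past an adjusted p of 0.05 in limma-trend, all lower: WARS, FARSA, FARSB, YARS, KARS, IARS and PARS2. The background in that fit was 6.94% of all tested genes lower and 6.29% higher, with 14% lower within the cytosolic level range (6 of 20 members) and 7.67% within the mitochondrial one (1 of 16). KO 2 alone gave CARS and FARS2 higher and EARS2 lower, against 10.9% of tested genes higher and 6.62% lower. Within the cytosolic level range 15.3% were higher, and within the mitochondrial range 10.9% were higher and 7.29% lower. A lone library has no spread of its own in such a fit and is assumed to vary like the EV control pair, so these calls compare single libraries and not the conditions.

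**Figure D3:**
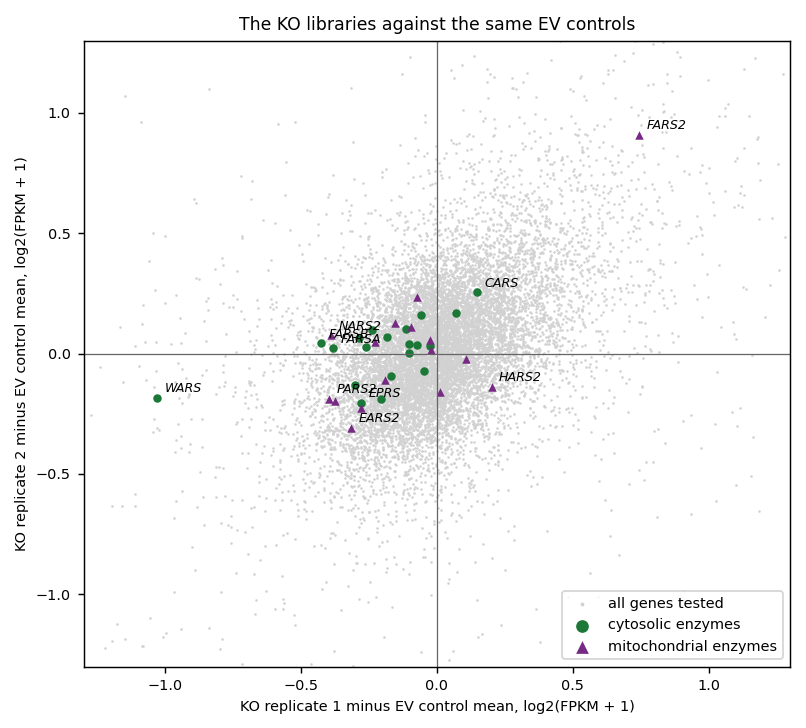
Difference of KO replicate 1 (x axis) and KO replicate 2 (y axis) from the EV control mean on the log2(FPKM + 1) scale for all tested genes (grey, those beyond 1.3 not drawn) and the synthetases (coloured). The cytosolic genes lie mostly left of 0 on the x axis and around 0 on the y axis, with WARS far left and FARS2 at the upper right; both axes subtract the same EV control values.

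The multisynthetase complex holds 8 of the cytosolic genes, and 8 of 8 lay below both EV control libraries in KO 1, while 4 of 8 did in KO 2. Of the 12 cytosolic genes outside the complex, 10 did so in KO 1 and 2 in KO 2, so the low level in KO 1 was not particular to the complex. The background was 42.8% in KO 1 and 41.4% in KO 2 over all tested genes, and 55.8% and 33.9% within the cytosolic level range. EPRS, which charges both glutamate and proline tRNA, had 60.1 and 63.4 FPKM in KO libraries, against 70.6 and 75.8 FPKM in EV control libraries. Its groups did not overlap, and its log2 change was -0.24 (SE 0.083; limma-trend, adjusted p = 0.280). IARS, the isoleucine enzyme, had 85.3 and 96.3 FPKM in KO libraries, against 102 and 108 FPKM in EV control libraries (log2 change -0.22, adjusted p = 0.352 in limma-trend). RARS, the arginine enzyme, and MARS, the methionine enzyme, also had both KO libraries below both EV control libraries, by smaller margins. KARS, LARS, QARS and DARS, for lysine, leucine, glutamine and aspartate, were lower in KO 1 and above the EV control mean in KO 2. The median log2 change was -0.093 for the complex and -0.040 for the 12 cytosolic genes outside it.

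The scaffold genes of the complex did not stand apart. AIMP1 had 30.5 and 33.0 FPKM in KO libraries, against 31.7 and 32.8 FPKM in EV control libraries, and AIMP2 and EEF1E1 overlapped between groups as well. XPOT, the exportin that carries tRNA out of the nucleus, had the smallest p of the 7 tested scaffold, editing and transport genes. It stood at 38.8 and 39.5 FPKM in KO libraries, against 44.8 and 47.9 FPKM in EV control libraries (log2 change -0.24, SE 0.079; limma-trend, adjusted p = 0.271). TARSL2, a threonyl-tRNA synthetase-like gene, had 7.47 and 8.30 FPKM in KO libraries, against 6.86 and 6.92 FPKM in EV control libraries. None of the 7 passed the test.

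The 13 cytosolic genes known to respond to ATF4 went both ways, with 3 log2 changes above 0 and 10 below. Their median was -0.060, against -0.116 for the 7 other cytosolic genes. Of the 13, 2 had both KO libraries above and 5 both below both EV control libraries, against 26.5% and 25.6% of all tested genes. CARS, the cysteine enzyme, was higher in both KO libraries at 47.2 and 50.9 FPKM, against 43.4 and 41.6 FPKM in EV control libraries (log2 change 0.20, SE 0.082; limma-trend, adjusted p = 0.323). AARS, the alanine enzyme, was higher by less, at 87.8 and 94.2 FPKM in KO libraries, against 84.1 and 83.2 FPKM in EV control libraries. NARS, the asparagine enzyme, was lower in both, at 106 and 107 FPKM in KO libraries, against 120 and 125 FPKM in EV control libraries (log2 change -0.20, SE 0.079; limma-trend, adjusted p = 0.316). EPRS, IARS, MARS and WARS also had both KO libraries below both EV control libraries. GARS, SARS, TARS, LARS, VARS and YARS overlapped between the groups.

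Start regions were read for the 30 members found in the RefSeq promoter table (GRCh38.p14), and the 250 bases before each start were searched on both strands for TGATGNAA, the core of the element that ATF4 binds with C/EBP partners. The motif was found at 4 members and in 10.3% of 39 member windows, against 3.14% of all 35116 windows of the same length. The window of IARS is shown as an example, its match lying close to the start. It is given 5′ to 3′ along the gene, ending at the base before the start, with the match in capitals, and is at chr9:92293698-92293947 on the minus strand.
IARS: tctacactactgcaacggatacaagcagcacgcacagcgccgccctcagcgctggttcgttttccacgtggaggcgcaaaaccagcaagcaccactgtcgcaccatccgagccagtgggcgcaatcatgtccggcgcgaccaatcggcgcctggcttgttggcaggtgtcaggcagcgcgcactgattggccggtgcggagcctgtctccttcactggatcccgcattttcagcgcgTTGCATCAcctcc
The match begins 13 bases before the start and reads on the strand opposite to the gene. A match of letters is a description and shows no binding.

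Stress response genes outside the family gave a mixed picture too. Of 25 tested targets of the integrated stress response, 0 passed the test and 7, all lower, reached p under 0.05 without adjustment, against 9.23% higher and 7.22% lower over all tested genes. The median log2 change of the 25 was -0.078. ATF4 itself had 446 and 487 FPKM in KO libraries, against 442 and 429 FPKM in EV control libraries. The 4 genes with the smallest p are given in turn. PSAT1, a serine synthesis enzyme, had 81.3 and 84.9 FPKM in KO libraries, against 108 and 105 FPKM in EV control libraries (log2 change -0.35, SE 0.078; limma-trend, adjusted p = 0.202). SLC7A11, the cystine importer, had 4.90 and 3.28 FPKM in KO libraries, against 7.36 and 8.54 FPKM in EV control libraries. SLC7A1, an importer of basic amino acids, had 14.7 and 17.4 FPKM in KO libraries, against 21.5 and 22.6 FPKM in EV control libraries. MTHFD2, a mitochondrial folate enzyme, had 144 and 148 FPKM in KO libraries, against 173 and 188 FPKM in EV control libraries. For these 4 genes both KO libraries lay below both EV control libraries. Over the whole list 5 genes had both KO libraries above and 10 both below, against 26.5% and 25.6% of all tested genes. ASNS, asparagine synthetase and a much-used marker of the response, overlapped at 116 and 136 FPKM in KO libraries, against 132.3 and 132.5 FPKM in EV control libraries. Among the kinases that start the response, EIF2AK2, which senses double-stranded RNA, had 7.82 and 6.95 FPKM in KO libraries, against 9.79 and 10.3 FPKM in EV control libraries (log2 change -0.40; limma-trend, adjusted p = 0.209). EIF2AK4, the GCN2 kinase that senses uncharged tRNA, had 18.1 and 15.9 FPKM in KO libraries, against 18.9 and 19.8 FPKM in EV control libraries. EIF2AK1 and EIF2AK3, the other kinases tested, overlapped between the groups, with log2 changes of -0.0035 and 0.0077. Of the 4 kinases, 0 had both KO libraries above and 2 both below both EV control libraries, against 26.5% and 25.6% of all tested genes.

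WARS, the tryptophan enzyme and a gene known to be induced by interferon, was the member with the largest drop in a single library. It had 19.6 and 36.1 FPKM in KO libraries, against 40.7 and 41.5 FPKM in EV control libraries. Both KO libraries were below both controls, but KO 1 held 47.8% and KO 2 87.7% of the EV control mean. The group difference was -0.61 on the log2(FPKM + 1) scale (SE 0.28; limma-trend, adjusted p = 0.360). KO 1 alone differed by -1.03 (limma-trend, adjusted p = 0.00281) and KO 2 alone by -0.18 (adjusted p = 0.0864). Of 11 tested interferon-stimulated genes, 0 passed, and 2, both higher, reached p under 0.05 without adjustment, against 9.23% higher and 7.22% lower over all tested genes. By library, 2 of the 11 were above both EV controls in KO 1 and KO 2 alike and 1 was below them, against 26.5% and 25.6% of all tested genes. The 2 above were IFI27, at 3.46 and 4.07 FPKM in KO libraries, against 2.09 and 2.25 FPKM in EV control libraries, and IFI6, at 19.2 and 23.3 FPKM in KO libraries, against 15.5 and 13.8 FPKM in EV control libraries. The 1 below was IFIT3, an antiviral RNA-binding protein gene near the lowest level tested, at 0.924 and 0.778 FPKM in KO libraries, against 1.83 and 1.01 FPKM in EV control libraries.

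WARS is the one member on chromosome 14, which also carries C14orf159, 46 tested genes away in RefSeq order. Its 4 nearest tested neighbours on either side were therefore examined. They held a median of 67.7% of the EV control mean in KO 1 and 118% in KO 2, with a range from 20.0% to 173% in KO 1 and from 81.6% to 158% in KO 2. WDR25, the adjacent gene, had 1.71 and 2.69 FPKM in KO libraries, against 3.35 and 3.26 FPKM in EV control libraries. YY1, a zinc finger transcription factor gene, had 24.5 and 35.4 FPKM in KO libraries, against 39.7 and 40.2 FPKM in EV control libraries. PPP2R5C, a phosphatase subunit gene, had 26.4 and 53.4 FPKM in KO libraries, against 43.9 and 46.1 FPKM in EV control libraries. EVL, an actin regulator gene, went the other way, at 6.67 and 6.09 FPKM in KO libraries, against 3.78 and 3.92 FPKM in EV control libraries. EML1, SLC25A29 and BEGAIN were lower in KO 1 than in the other 3 libraries, while LINC00239 lay between the EV controls in both KO libraries. KO 1 thus lay below both EV control libraries for WARS, WDR25, YY1, PPP2R5C, EML1, SLC25A29 and BEGAIN, and not for EVL or LINC00239. It did so for 42.8% of all tested genes. The part of position in the level of WARS was not tested.

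**Figure D4:**
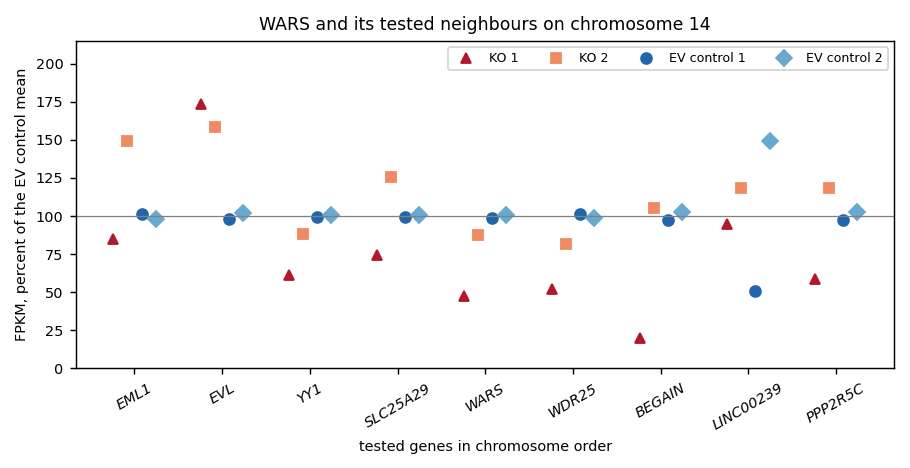
FPKM as a percentage of the EV control mean for WARS and 4 tested genes on each side in chromosome order, 1 point per library. KO 1 is the lowest library for WARS (47.8%), EML1, YY1, SLC25A29, WDR25, BEGAIN and PPP2R5C, while EVL is above 150% in both KO libraries.

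Phenylalanine is charged by a cytosolic enzyme of FARSA and FARSB subunits and by the single-gene mitochondrial enzyme FARS2, and their levels differed in pattern. FARSA had 63.4 and 84.2 FPKM in KO libraries, against 84.3 and 81.6 FPKM in EV control libraries. FARSB had 37.6 and 52.4 FPKM in KO libraries, against 52.1 and 49.6 FPKM in EV control libraries. Both subunits were low in KO 1, at 76.5% and 74.0% of the EV control mean, and near it in KO 2, at 102% and 103%. FARS2 had 6.68 and 7.61 FPKM in KO libraries, against 2.94 and 4.33 FPKM in EV control libraries, so both KO libraries were higher. Its mean was 7.14 ± 0.659 FPKM in KO and 3.64 ± 0.986 FPKM in EV control cells (SD, n = 2 each), 1.96-fold higher. The log2 change was 0.83 (SE 0.18), the largest and the one with the smallest p among the members, and it did not pass (limma-trend, adjusted p = 0.194). The values rest on an estimated 140 and 164 fragments in KO libraries, against 64 and 97 in EV control libraries. The EV control libraries differed 1.47-fold for FARS2, more than for any other member (at most 1.20-fold).

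A RefSeq start of FARS2 lies 57 bases from that of LYRM4, which is read in the opposite direction. LYRM4 encodes a small protein of mitochondrial iron-sulfur cluster assembly. LYRM4 was also higher in both KO libraries, at 16.1 and 23.0 FPKM, against 9.26 and 8.44 FPKM in EV control libraries. Its log2 change of 1.04 (SE 0.18) did not pass either (limma-trend, adjusted p = 0.175). Both genes thus stood higher in KO 2 than in KO 1 and higher in both than in the controls. The RefSeq ranges of the genes overlap, and no label says whether counting used strand, so fragments of the pair may not be fully separated.

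Head-to-head partners, genes that start within 1000 bases on the opposite strand, were then listed for all members with an entry, and 7 such pairs were measured. EARS2, the mitochondrial glutamate enzyme, had 16.7 and 16.8 FPKM in KO libraries, against 20.3 and 21.6 FPKM in EV control libraries. Its partner UBFD1, a ubiquitin-fold protein gene, had 31.6 and 30.01 FPKM in KO libraries, against 36.2 and 36.1 FPKM in EV control libraries. For both genes the KO libraries nearly coincided and lay below the controls, with log2 changes of -0.31 (SE 0.079) and -0.22 (SE 0.076) that did not pass (limma-trend, adjusted p = 0.214 and 0.277). WARS and WDR25 shared the low level in KO 1 described above. RARS2, the mitochondrial arginine enzyme, gave the contrary case, at 30.5 and 27.8 FPKM in KO libraries, against 29.2 and 27.3 FPKM in EV control libraries. Its partner ORC3, a subunit of the replication origin complex, had 15.4 and 16.0 FPKM in KO libraries, against 22.6 and 24.4 FPKM in EV control libraries (log2 change -0.55, SE 0.084; limma-trend, adjusted p = 0.155). HARS and HARS2, the histidine enzymes of the cytosol and the mitochondrion, share a start region and had opposite orders of the KO libraries. HARS had 52.9 and 57.2 FPKM in KO libraries, against 55.6 and 55.9 FPKM in EV control libraries, and HARS2 had 37.0 and 29.05 FPKM in KO libraries, against 32.3 and 31.8 FPKM in EV control libraries. Neither gene differed between the groups beyond the gap between the KO libraries. Outside the family, 4 of 6 partners had the sign of their member's change, the exceptions being ORC3 and MRPS12 (partner of SARS2). KARS and TERF2IP shared a sign but not the order of libraries. KARS held 83.3% and 102% of the EV control mean in KO 1 and KO 2, and TERF2IP 100.3% and 88.7%. The log2 change of SARS2 was only 0.0081, and agreement of sign was not tested.

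The stretches between neighbouring starts are shown for 4 pairs. FARS2 and WARS each have another RefSeq start, which lies outside the stretch shown. The stretches run 5′ to 3′ along the synthetase gene. Capitals mark CCAAT or its complement ATTGG, the box bound by NF-Y, and CCGGAA or TTCCGG, a core bound by ETS factors. The FARS2 stretch is chr6:5260951-5261006 on the plus strand; those of WARS (chr14:100376328-100376484), HARS (chr5:140691371-140691454) and RARS2 (chr6:87589988-87590134) are on the minus strand (RefSeq, GRCh38.p14).
FARS2 to LYRM4: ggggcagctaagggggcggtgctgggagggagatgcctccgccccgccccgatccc
WARS to WDR25: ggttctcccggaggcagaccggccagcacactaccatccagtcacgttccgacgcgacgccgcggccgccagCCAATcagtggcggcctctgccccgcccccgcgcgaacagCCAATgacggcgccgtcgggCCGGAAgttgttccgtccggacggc
HARS to HARS2: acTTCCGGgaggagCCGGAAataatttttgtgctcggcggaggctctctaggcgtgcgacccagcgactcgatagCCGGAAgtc
RARS2 to ORC3: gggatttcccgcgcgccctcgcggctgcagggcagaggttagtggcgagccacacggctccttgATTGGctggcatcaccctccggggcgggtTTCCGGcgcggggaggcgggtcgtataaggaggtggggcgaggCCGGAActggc
The FARS2 stretch held neither motif. The HARS stretch held CCGGAA or its complement at 3 places, that of WARS held CCAAT at 2 and CCGGAA at 1, and that of RARS2 held ATTGG at 1 and CCGGAA or its complement at 2. Over all promoter windows of 250 bases, CCAAT or its complement was found in 32.0% and CCGGAA or its complement in 14.5%, windows longer than these stretches. Nothing about the factors follows from a match or its lack.

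**Figure D5:**
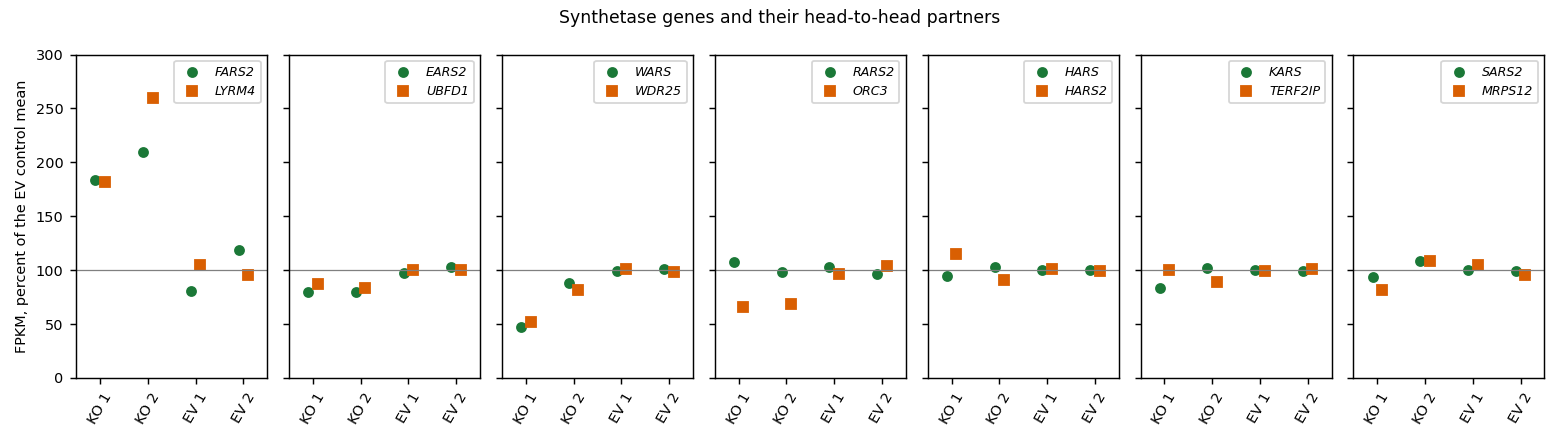
FPKM as a percentage of the EV control mean for 7 synthetase genes (circles) and their head-to-head partners (squares), in the order KO 1, KO 2, EV control 1 (EV 1) and EV control 2 (EV 2). FARS2 and LYRM4 are high in both KO libraries, WARS and WDR25 are lowest in KO 1, and ORC3 lies below RARS2 in both KO libraries.

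Apart from FARS2, most of the mitochondrial set overlapped between the groups, and 4 of its 16 genes lay lower in both KO libraries, a share near the 25.6% of all tested genes. Besides EARS2 these were LARS2, MARS2 and PARS2. LARS2, for leucine, had 10.9 and 11.4 FPKM in KO libraries, against 13.8 and 13.2 FPKM in EV control libraries (log2 change -0.25, SE 0.082; limma-trend, adjusted p = 0.265). MARS2, for methionine, had 7.04 and 8.09 FPKM in KO libraries, against 9.81 and 9.07 FPKM in EV control libraries (log2 change -0.29, SE 0.10; limma-trend, adjusted p = 0.291). PARS2, for proline, had 5.31 and 6.29 FPKM in KO libraries, against 7.21 and 7.39 FPKM in EV control libraries (log2 change -0.29, SE 0.11; limma-trend, adjusted p = 0.297). WARS2, the mitochondrial tryptophan enzyme, had 5.30 and 5.48 FPKM in KO libraries, against 5.29 and 5.51 FPKM in EV control libraries, while its cytosolic counterpart WARS was low in KO 1. AARS2, CARS2, IARS2, NARS2, SARS2, TARS2, VARS2 and YARS2 overlapped between the groups.

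Counterparts for the same amino acid were compared next. In the 13 amino acids with a single gene in each compartment, the cytosolic gene stood higher per length in every pair, by 1.47-fold (isoleucine) to 13.1-fold (alanine) in EV control cells, with a median of 4.39-fold. Of these pairs, 9 had log2 changes of the same sign and 4 of opposite sign (alanine, histidine, arginine and threonine). Some changes lay near 0 in pairs of either kind, such as 0.0022 for SARS with 0.0081 for SARS2, and -0.0195 for HARS with 0.0321 for HARS2. Of all 36 members, 26 had a log2 change below 0, and agreement of sign within pairs was not tested. The ratio of FARSA to FARS2 was 9.497 and 11.1 in KO libraries, against 28.7 and 18.8 in EV control libraries. The ratio of WARS to WARS2 was 3.70 and 6.58 in KO libraries, against 7.68 and 7.52 in EV control libraries. Glutamate and proline share EPRS in the cytosol, and EPRS, EARS2 and PARS2 each had both KO libraries below both EV control libraries. They are among the 10 of 36 members that did, against 25.6% of all tested genes. None of them passed the test, and their shared direction was not tested.

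Class I and class II synthetases, which differ in the fold of the catalytic domain, were described in the same way. The 19 class I genes had a median log2 change of -0.074, with 1 gene having both KO libraries above and 8 both below the EV control libraries. The 17 class II genes had a median of -0.051, with 2 genes above and 2 below. Over all tested genes 26.5% had both KO libraries above and 25.6% both below, and the difference between the classes was not tested.

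Other genes of mitochondrial translation gave few departures. Of 9 tested genes for charging and modifying mitochondrial tRNA, which include the amidotransferase subunits GATC and QRSL1 that make glutaminyl-tRNA in the organelle, 0 passed the test and 0 reached an unadjusted p under 0.05. MTO1, a wobble-base modifier, and TRNT1, the CCA-adding enzyme, had the smallest p-values, with log2 changes of -0.20 and -0.18. Of 11 mitochondrial translation factors, 0 passed the test, and 1 in each direction reached p under 0.05 without adjustment. Over all tested genes 9.23% were higher and 7.22% lower at that p, so the count of translation factors was near the background. MTIF3, an initiation factor, had 40.9 and 40.6 FPKM in KO libraries, against 33.0 and 31.2 FPKM in EV control libraries (log2 change 0.33, SE 0.077; limma-trend, adjusted p = 0.208). GFM2, a ribosome recycling factor, had 14.8 and 14.9 FPKM in KO libraries, against 18.6 and 18.0 FPKM in EV control libraries (log2 change -0.29, SE 0.077; limma-trend, adjusted p = 0.226). The 6 cytosolic elongation factor genes overlapped between the groups, with KO 1 below KO 2 for 6 of 6, as for 19 of the 20 cytosolic synthetases. KO 1 lay below KO 2 in 52.1% of all tested genes and in 70.9% of those within the cytosolic level range. The elongation factor genes stood above that range of 34.5 to 133 FPKM, and the part of level in this order was not tested.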

How the data were processed

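mRNA libraries (TruSeq stranded mRNA kit, per the labels' protocols) of 2 KO and 2 EV control samples were used. The authors deposited FPKM per gene symbol, per the file headers and the submitters' processing notes, which name TopHat2 2.0.13, Bowtie2 2.2.3, SAMtools 0.1.19, Cuffnorm 2.2.1 and the build hg19. Which annotation, strand setting and library scaling the authors chose is not stated there.

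FPKM were transformed to log2(FPKM + 1), which understates changes of low genes. Genes with at least 1 FPKM in at least 2 libraries were fitted with limma 3.58.1 (mean-variance trend, R 4.3.3) by group, after a run on simulated data, with Benjamini-Hochberg adjustment over all genes and a threshold of 0.05. Log2 changes are KO minus EV control. The members, lists, groups and tests were chosen with earlier results of these data known. Named were all members, the targeted gene, up to 4 genes per list by smallest p, and the neighbours of members on chromosome 14. AIMP1, AIMP2, EEF1E1, TARSL2, ATF4, ASNS, IFIT3, GATC, QRSL1, EIF2AK1, EIF2AK3, EIF2AK4, markers and head-to-head partners were added for their roles.

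Depth was estimated from what 1 fragment is worth in 2008 genes that have 1 GENCODE 29 transcript of 1000 to 6000 nt, as the median of FPKM times length in kilobases between 0.06 and 0.1. That window bounds the result, so the depths are rough, and fragment numbers cover counting error only. Promoter sequence and gene order came from RefSeq tables (GRCh38.p14), matched by symbol; 30 of 36 members had a promoter entry (DARS, LARS, VARS, YARS, AARS2 and VARS2 did not), and hg19 coordinates were not used.

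The alternatives were other pseudocounts, filters and scalings, limma without the trend, a replicate block and leaving out each library.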

Additional observations from a re-analysis of the deposited data

How the results depend on the processing

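No synthetase gene passed with a replicate block, without the trend, with quantile or median-of-ratios scaling, with no filter or one at 5 FPKM, or with pseudocounts of 0.1 or 0.5, where the smallest adjusted p of a member lay between 0.151 (replicate block) and 0.292 (no filter). Calls over all genes numbered 14, and moved to 6 without a filter and 8 without the trend; with the replicate block they were 12 (4 higher, 8 lower). Replicate deviations of KO and EV control correlated at -0.00455 over the tested genes. That value gave no sign of pairing by replicate number, but it cannot show how the libraries were prepared. With the block no member was called, as in the main fit, so the calls do not bear on pairing. Leaving out 1 library gave 11 to 2222 calls over all genes and 0 to 7 among members; without KO replicate 1 they were 2222 and 3, without KO replicate 2 they were 1680 and 7. The lone KO library is then assumed to vary like the EV controls. The sign of SARS turned with median-of-ratios scaling (-0.0022) and quantile normalization (-0.021); the other 35 members kept theirs in all settings with 4 libraries. Leaving out 1 library turned the sign of 32 of the 71 genes refitted one by one, with log2 changes of -0.0789 to 0.0331 for AIMP1, -0.19 to 0.0556 for AIMP2, -0.19 to 0.0376 for ASNS, -1.03 to 0.0473 for BEGAIN, -0.0728 to 0.24 for CARS2, -0.18 to 0.0705 for DARS, -0.15 to 0.14 for EEF1E1, -0.16 to 0.43 for EML1, -0.38 to 0.0223 for FARSA, -0.43 to 0.044 for FARSB, -0.12 to 0.10 for GARS, -0.0744 to 0.0354 for HARS, -0.14 to 0.20 for HARS2, -0.23 to 0.0467 for IARS2, -0.26 to 0.0294 for KARS, -0.24 to 0.10 for LARS, -0.30 to 0.50 for LINC00239, -0.28 to 0.12 for MRPS12, -0.39 to 0.0767 for NARS2, -0.75 to 0.24 for PPP2R5C, -0.0592 to 0.16 for QARS, -0.023 to 0.11 for RARS2, -0.0267 to 0.0311 for SARS, -0.10 to 0.11 for SARS2, -0.39 to 0.30 for SLC25A29, -0.10 to 0.0011 for TARS, -0.0585 to 0.0907 for TARS2, -0.10 to 0.0421 for VARS, -0.16 to 0.0104 for VARS2, -0.0281 to 0.0219 for WARS2, -0.29 to 0.063 for YARS and -0.15 to 0.13 for YARS2. The medians of the cytosolic and mitochondrial genes ranged from -0.177 to 0.033 and from -0.125 to -0.003 in these fits. With 2 libraries per group, the groups overlap for 23 of 36 members, against 6083 of 12701 tested genes. FARS2 has the fewest estimated fragments.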
